A study of Mus musculus with 6 samples.

Results

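Neutrophils carry antimicrobial and matrix-modifying proteins in granules, and 9 genes for proteins of the specific (secondary) and gelatinase (tertiary) granules were followed here across 3 sorted myeloid populations of mouse tumours. The genes were taken by symbol (Ltf, Camp, Ngp, Lcn2, Olfm4, Pglyrp1, Chil1, Chil3 and Cd177) and are 9 of the 35275 genes in each count table. The tumours were CT26, a colon carcinoma line of BALB/C origin, grown under the skin of BALB/C mice until they reached 1800 mm3, then digested and sorted by flow cytometry. Ly6G-low T1-binding, Ly6G-high T1-binding and Ly6G-high T1-non-binding myeloid cells were each sorted from the same 2 mice, giving 6 bulk RNA libraries, 2 per population. T1 is an aptamer, a short nucleic acid chosen for binding to a target, and Ly6G is a surface protein that marks neutrophils in mice. All groups therefore shared strain, tumour and mice, and differed in the sort gate. The aptamer's target, the mice's age and sex, the other gating markers and the number of cells sorted are not given in the sources used here.

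Granule proteins are made in sequence as a neutrophil matures in the bone marrow. Azurophil (primary) granule proteins such as myeloperoxidase belong to promyelocytes, specific granule proteins to myelocytes and metamyelocytes, and gelatinase granule proteins to band cells. The proteins stay stored in the mature cell after most of their transcripts have declined, and in mice the transcription factor C/EBP epsilon is required for specific granules. Some of the 9 genes are not restricted to neutrophils: Chil3 (Ym1) is also a mark of alternatively activated mouse macrophages, and Lcn2 is also made by epithelium and macrophages.

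The libraries held between 23595976 and 28045025 gene counts, and 13883 genes, all 9 granule genes included, passed the filter on low counts. Ly6g, the transcript of the gate marker, reached 0.182 and 0.0289 counts scaled to library size (CPM) in Ly6G-low T1-binding cells, 10.1 and 9.39 CPM in the Ly6G-high T1-binding cells and 32.8 and 30.2 CPM in the Ly6G-high T1-non-binding cells of mouse 1 and mouse 2. Summed CPM of 10 mature neutrophil genes was 326 to 504 in Ly6G-low T1-binding, 12327 to 18981 in Ly6G-high T1-binding and 31552 to 50513 in Ly6G-high T1-non-binding libraries. Summed CPM of 12 macrophage genes was 1938 to 3694 in Ly6G-low T1-binding, 11847 to 12169 in Ly6G-high T1-binding and 5545 to 6023 in Ly6G-high T1-non-binding libraries, and none of those 12 genes was at 0 in any library. The 8 pan-leukocyte genes summed to 1277 to 1856 CPM in the Ly6G-low libraries, against 10037 to 19352 CPM in the Ly6G-high libraries. The 8 fibroblast and endothelial genes summed to 1174 to 1446 CPM, against 432 to 815 CPM. Most of that sum was Col1a2, at 835 and 748 CPM in the Ly6G-low libraries. Of these 8 genes, 3 rose (Col1a2, Pdgfrb and Emcn) and the endothelial Kdr fell against Ly6G-high T1-binding cells (edgeR adjusted p under 0.05). Against T1-non-binding cells 2 rose and Kdr fell again. The 7 epithelial genes summed to 117 to 133 CPM, against 76 to 86 CPM. Krt8 made up most of the Ly6G-low sum, with 85.6 CPM in mouse 1 and 83.1 CPM in mouse 2. Only 5 of the 7 were tested, and they did not move together. Relative to the T1-binding Ly6G-high gate, Krt18 rose (log2 fold change 1.15, edgeR adjusted p 0.01639) while Cdh1 fell (-2.30, adjusted p 0.03045). Relative to the T1-non-binding gate only Krt18 was called, and it rose. Both Ly6G-high gates therefore held neutrophil and macrophage transcripts together. The Ly6G-low gate, labelled myeloid, held leukocyte transcripts at lower levels beside higher Col1a2. The Ly6G-high T1-binding library of mouse 1 held 422 counts of 4 promyelocyte genes, against at most 20 in any other library. Of the other early granule genes listed, Prtn3 (2.47 CPM) and Ctsc (2901 CPM) were also highest in it, while Prss57 and Fcnb were not. The values without this library are given with the 4 promyelocyte genes. In bulk libraries, fewer neutrophils in a gate and less granule RNA per neutrophil cannot be told apart.

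Levels of the 9 genes were compared with each other by FPKM, the authors' value per kilobase of transcript. In Ly6G-low T1-binding cells the levels were Lcn2 at 11.8 ± 1.65 FPKM, Pglyrp1 at 3.82 ± 0.494 FPKM and Chil3 at 3.16 ± 0.523 FPKM (SD, n = 2 each), while the other 6 genes averaged below 1 FPKM. In Ly6G-high T1-binding cells Lcn2 was again first at 92.3 ± 6.72 FPKM and Pglyrp1 next at 59.4 ± 0.609 FPKM, followed by Olfm4 (44.4 ± 17.6), Cd177 (38.8 ± 11.6), Chil1 (34.3 ± 8.0), Ngp (23.1 ± 18.9), Chil3 (20.2 ± 6.76), Ltf (8.49 ± 4.59) and Camp (4.23 ± 3.45). In Ly6G-high T1-non-binding cells the order by FPKM was Lcn2 (226 ± 14.2), Pglyrp1 (151 ± 0.732), Ngp (102 ± 55.6), Olfm4 (94.5 ± 23.7), Cd177 (78.1 ± 10.5), Chil1 (69.8 ± 12.8), Ltf (33.7 ± 17.8), Camp (24.0 ± 15.5) and Chil3 (21.4 ± 5.85). Lcn2, which encodes an iron-siderophore-binding lipocalin, was the most abundant of the 9 transcripts per length in each library, and Pglyrp1, which encodes a peptidoglycan recognition protein, came next in each Ly6G-high group. Of the neighbours in these orders, both mice separated Lcn2 from Pglyrp1 in each population. In Ly6G-low cells only Chil3 from Cd177 was also separated; in Ly6G-high T1-binding cells Pglyrp1 from Olfm4 and Chil3 from Ltf were; in Ly6G-high T1-non-binding cells Pglyrp1 from Ngp and Chil1 from Ltf were. The values of the other neighbours overlapped between the mice.

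**Figure D1:**
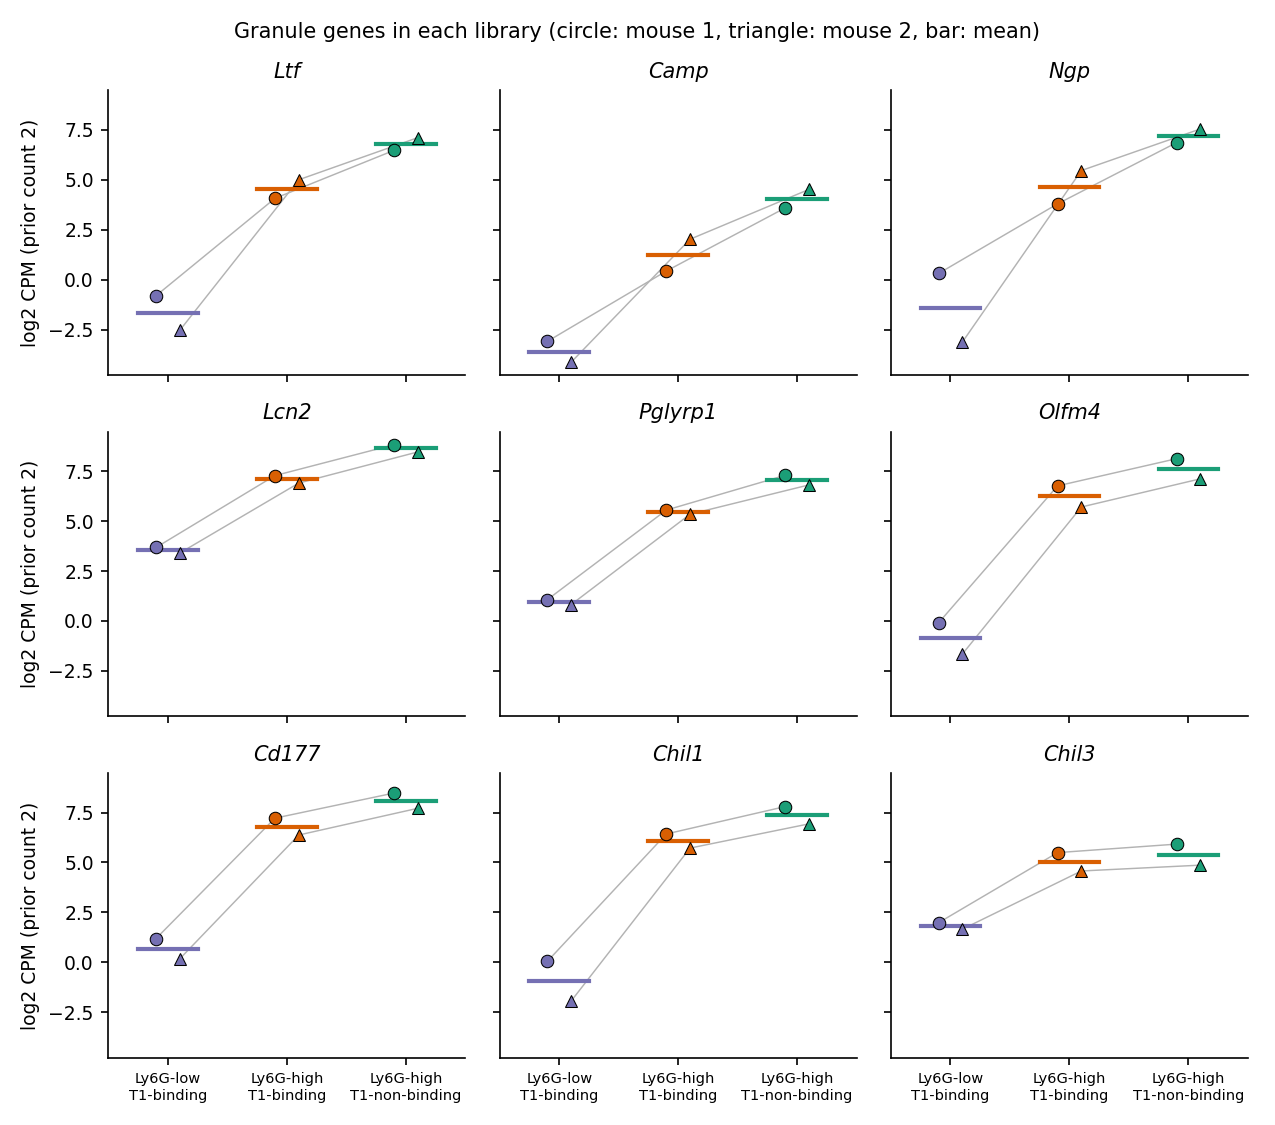
Each panel plots 1 granule gene as log2 CPM (vertical axis, prior count of 2) in Ly6G-low T1-binding, Ly6G-high T1-binding and Ly6G-high T1-non-binding cells (horizontal axis); circles are mouse 1, triangles mouse 2, bars the means, and grey lines join libraries of 1 mouse. All 9 genes were lowest in the Ly6G-low libraries, and only Chil3 overlapped between the 2 Ly6G-high groups.

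Among Ly6G-high cells, all 9 granule genes had a lower mean in T1-binding than in T1-non-binding cells, and in 8 of them (all but Chil3) every T1-binding library was below every T1-non-binding library. Non-overlap in this direction was found for 19.1% of all tested genes, and a negative log2 fold change for 55.4%. The median log2 fold change of the 9 genes was -1.55, against -0.05 over all tested genes. None of the 9 passed an adjusted p of 0.05 in edgeR's quasi-likelihood test with Benjamini-Hochberg adjustment, and no gene did (0% of 13883 called), with 3 residual degrees of freedom. At an unadjusted p under 0.05, 8 of the 9 were lower, against 6.35% of tested genes, which were 881 lower genes beside 742 higher ones. Pglyrp1 ranked first and Lcn2 rank 5 among all tested genes by p.

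The block for mouse changes these calls. With the mouse as a block on the 4 Ly6G-high libraries, which leaves 1 residual degree of freedom, edgeR called all 9 granule genes lower in T1-binding cells, among 3778 genes of which 1955 were lower (14.6% of those tested), with adjusted p of 1.487e-16 for Ltf up to 0.03995 for Chil3. With the same block on all 6 libraries no gene was called, and the adjusted p of the 9 genes lay between 0.05699 and 0.4503. DESeq2 called 3 of the 9 (Ltf, Lcn2 and Pglyrp1) among 203 genes (0.965% of tested genes lower), and edgeR without a filter on low counts called 2 of the 9 (Lcn2 and Pglyrp1) among 71 (0.193% lower). limma-voom called none. An exact permutation test of 1 gene with 2 libraries against 2 cannot go below p = 0.3333.

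**Figure D2:**
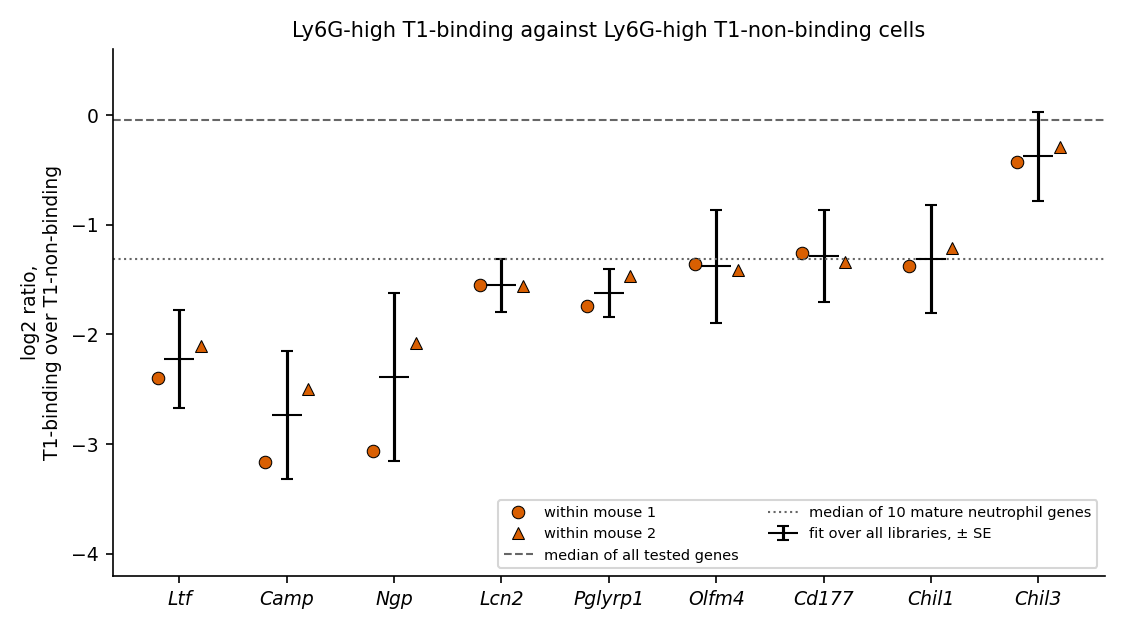
The log2 ratio of Ly6G-high T1-binding over Ly6G-high T1-non-binding cells (vertical axis) is plotted for each granule gene (horizontal axis), within mouse 1 (circles), within mouse 2 (triangles) and from the edgeR fit with its SE (bars). The ratios within both mice are below 0 for all 9 genes; the dotted line is the median of 10 mature neutrophil genes at -1.31 and the dashed line that of all tested genes at -0.05.

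Ltf, Camp and Ngp, 3 specific granule genes of myelocytes, had the most negative log2 fold changes of the 9 over all libraries; without T1-binding mouse 1, Olfm4 (-2.00) was below Ltf (-1.83) and Ngp (-1.78). Ltf encodes lactoferrin, the iron-binding protein of the specific granule, and had 16.8 and 32.0 CPM in T1-binding cells of mouse 1 and mouse 2, against 88.9 and 138 CPM in T1-non-binding cells. Camp encodes the cathelicidin precursor of the antimicrobial peptide CRAMP and had 1.26 and 4.0 CPM in T1-binding cells, compared with 12.0 and 22.9 CPM in the T1-non-binding cells. Ngp, neutrophilic granule protein, encodes a cystatin-related protein and had 13.8 and 44.2 CPM in T1-binding cells, compared with 116 and 187 CPM in the T1-non-binding cells. For each of the 3 genes the groups did not overlap, and mouse 2 was higher than mouse 1 in both groups. The log2 fold changes were -2.22 ± 0.45 for Ltf, -2.73 ± 0.59 for Camp and -2.39 ± 0.77 for Ngp (SE), each with an edgeR adjusted p of 0.385. Leaving out T1-binding mouse 1 gave -2.13 for Camp and -1.78 for Ngp, and leaving out T1-binding mouse 2 gave -3.76 and -3.42. Within mouse 1 the log2 ratios were -2.40, -3.16 and -3.07 for Ltf, Camp and Ngp, and within mouse 2 they were -2.11, -2.50 and -2.08.

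These 3 genes also lie near each other: on mouse chromosome 9 (GRCm38) Camp is at 109847379-109849617 on the minus strand, Ngp at 110419747-110423012 and Ltf at 111019271-111042767, both on the plus strand, a span of 1.20 Mb. All 3 are annotated as protein-coding (ENSMUSG00000038357, ENSMUSG00000032484 and ENSMUSG00000032496). The other 14 tested genes of that span had a median log2 fold change of -0.04 between the Ly6G-high groups, and none was called. The promoters of the 3 genes, and that of Lcn2 on chromosome 2, are shown as those with a C/EBP match (Ltf, Ngp and Lcn2) and as the neighbour of Ltf and Ngp without one (Camp); each line gives the 250 bases before the RefSeq transcription start (GRCm38.p6), 5′ to 3′ on the gene's strand. Capitals mark matches on either strand to TTNNGCAA, a form of the C/EBP family motif, and to GAGGAA, the core of the PU.1 motif.
Ltf: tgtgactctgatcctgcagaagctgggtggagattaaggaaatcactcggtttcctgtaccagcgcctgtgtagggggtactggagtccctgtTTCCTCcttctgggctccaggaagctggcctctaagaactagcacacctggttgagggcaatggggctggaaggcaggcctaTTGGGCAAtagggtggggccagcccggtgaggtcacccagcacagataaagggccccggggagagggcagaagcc
Ngp: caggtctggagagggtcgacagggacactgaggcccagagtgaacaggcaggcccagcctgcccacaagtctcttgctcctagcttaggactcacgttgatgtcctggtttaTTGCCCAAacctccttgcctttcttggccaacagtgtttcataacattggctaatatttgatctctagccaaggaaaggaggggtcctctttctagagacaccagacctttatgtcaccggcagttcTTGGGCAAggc
Lcn2: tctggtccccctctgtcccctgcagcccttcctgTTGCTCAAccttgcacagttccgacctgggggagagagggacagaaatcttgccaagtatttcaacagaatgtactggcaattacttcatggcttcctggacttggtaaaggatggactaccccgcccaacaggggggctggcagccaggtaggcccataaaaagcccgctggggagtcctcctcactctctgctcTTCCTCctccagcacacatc
Camp: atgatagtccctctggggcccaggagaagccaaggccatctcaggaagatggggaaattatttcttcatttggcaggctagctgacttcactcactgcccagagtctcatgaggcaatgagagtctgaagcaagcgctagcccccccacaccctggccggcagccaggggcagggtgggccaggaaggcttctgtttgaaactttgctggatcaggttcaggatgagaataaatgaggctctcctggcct
The windows are chr9:111019042-111019291 (plus strand) for Ltf, chr9:110419558-110419807 (plus strand) for Ngp, chr2:32387740-32387989 (minus strand) for Lcn2 and chr9:109849457-109849706 (minus strand) for Camp. The C/EBP letters stood 75 to 68 bases before the start of Ltf, 138 to 131 and 11 to 4 bases before that of Ngp, and 216 to 209 bases before that of Lcn2. The Camp window held neither motif. A C/EBP match was found in 3 of the 9 promoters (Ltf, Ngp and Lcn2), against 9.56% of 32851 RefSeq promoters of the same length, and a PU.1 match in 5 of 9 (Ltf, Lcn2, Olfm4, Pglyrp1 and Cd177), against 23.3%. The 2 motifs share no overlapping match in these windows, and a match is a description of the letters and not of a bound site.

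Lcn2 and Pglyrp1 had the smallest log2 differences between the mice in the Ly6G-high groups. Lcn2 had 155 and 119.9 CPM in T1-binding cells, compared with 454 and 354 CPM in the T1-non-binding cells. Pglyrp1 had 46.8 and 40.6 CPM in T1-binding cells, compared with 157 and 113 CPM in the T1-non-binding cells. In both genes the T1-binding libraries were below the T1-non-binding ones in each mouse and the groups did not overlap. Their log2 fold changes were -1.55 ± 0.24 for Lcn2 (unadjusted p 0.0003566) and -1.62 ± 0.22 for Pglyrp1 (unadjusted p 0.0001391), with an edgeR adjusted p of 0.385 for both. DESeq2 gave an adjusted p of 3.141e-06 for Lcn2 and 1.844e-06 for Pglyrp1.

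Olfm4, Cd177 and Chil1 had log2 fold changes close to each other, with mouse 1 above mouse 2 in both Ly6G-high groups. Lcn2 and Pglyrp1 had this order of the mice in CPM. In FPKM Pglyrp1 did not have it in these groups, nor did Lcn2 in T1-non-binding cells. Olfm4 encodes olfactomedin 4, a glycoprotein that marks a subset of neutrophils, and had 109 and 52.2 CPM in T1-binding cells, compared with 279.6 and 139 CPM in the T1-non-binding cells. Cd177 encodes a surface and granule-membrane protein of neutrophils and had 149 and 82.7 CPM in T1-binding cells, compared with 355 and 209 CPM in the T1-non-binding cells. Chil1 encodes the chitinase-like protein YKL-40 (BRP-39 in mice), which binds chitin without cleaving it, and had 85.8 and 52.6 CPM in T1-binding cells, compared with 222 and 122 CPM in the T1-non-binding cells. The groups did not overlap for any of the 3 genes; the nearest libraries were T1-binding mouse 1 and T1-non-binding mouse 2. The log2 fold changes were -1.38 ± 0.51 for Olfm4, -1.29 ± 0.42 for Cd177 and -1.31 ± 0.49 for Chil1 (SE), with edgeR adjusted p of 0.407, 0.385 and 0.407. Olfm4 stood at -2.00 without T1-binding mouse 1 and at -0.79 without T1-non-binding mouse 1.

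Chil3, which encodes a secreted chitinase-like lectin, was the exception among the 9. It had 44.9 and 23.7 CPM in T1-binding cells, compared with 60.3 and 29.0 CPM in the T1-non-binding cells, so the groups overlapped. Its log2 fold change was -0.38 ± 0.41 (edgeR adjusted p 0.741), and its sign turned to 0.08 without T1-binding mouse 2 and to 0.24 without T1-non-binding mouse 1. Chil4, a near-identical neighbour in the mouse genome, was listed at 0 counts in every library, and how reads shared by the 2 genes were counted is not given in the sources used here, so the Chil3 value is uncertain. Of 6 other genes used as marks of alternatively activated macrophages, of which Mrc1 is also among the 12 macrophage genes, 5 had a positive log2 fold change and 1 a negative one, with a median of 0.86, and none was called.

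Neutrophil and macrophage marker transcripts also differed between the Ly6G-high gates. All 10 mature neutrophil genes had negative log2 fold changes, with a median of -1.31 and no overlap between the groups, and all 12 macrophage genes had positive ones, with a median of 1.17. Against the mean log2 CPM of the 10 neutrophil genes in the same library, Lcn2 stood at -2.38 and -2.12 in T1-binding cells and at -2.20 and -1.84 in T1-non-binding cells, Olfm4 at -2.90 and -3.32 against -2.90 and -3.19, and Cd177 at -2.45 and -2.66 against -2.55 and -2.59. On that relative log2 scale Pglyrp1 stood at -4.11 and -3.68 in T1-binding cells against -3.73 and -3.49 in T1-non-binding cells, and Chil1 at -3.24 and -3.31 against -3.23 and -3.37. For these 5 genes the relative values of the 2 groups overlapped, and within each mouse Lcn2, Pglyrp1 and Olfm4 were lower in T1-binding cells, Olfm4 in mouse 1 by less than its printed digits show. Chil3 was relatively higher in T1-binding cells in both mice, at -4.18 and -4.46, against -5.11 and -5.44 in T1-non-binding cells. Ltf was at -5.59 and -4.02 in T1-binding cells, against -4.55 and -3.19 in T1-non-binding cells, Camp at -9.23 and -7.00 against -7.43 and -5.78, and Ngp at -5.87 and -3.56 against -4.16 and -2.76. For these 3 genes too the relative value was lower in T1-binding cells within each mouse, and the groups overlapped between the mice. The part of neutrophil content in the differences was not tested.

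**Figure D3:**
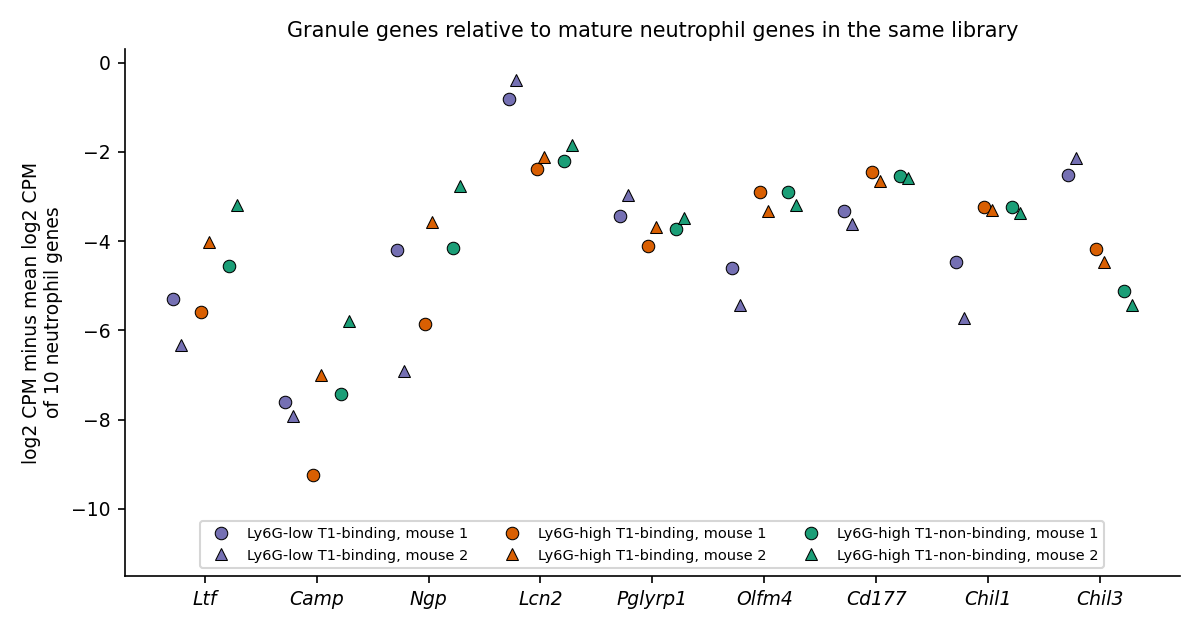
For each granule gene (horizontal axis) the vertical axis gives log2 CPM minus the mean log2 CPM of 10 mature neutrophil genes in the same library; colours are the 3 sorted groups, circles mouse 1 and triangles mouse 2. Chil3 was relatively highest in the Ly6G-low libraries (-2.52 and -2.13) and lowest in the Ly6G-high T1-non-binding ones (-5.11 and -5.44), while Olfm4, Cd177 and Chil1 were relatively lowest in the Ly6G-low libraries.

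Between the mice, the 9 genes split in the same way in both Ly6G-high gates in CPM. Ltf, Camp and Ngp were higher in mouse 2, by log2 ratios of 0.93, 1.59 and 1.67 in T1-binding cells and of 0.64, 0.93 and 0.68 in T1-non-binding cells. The other 6 genes were lower in mouse 2 in both gates, with log2 ratios of -0.21 (Pglyrp1) to -1.06 (Olfm4) in T1-binding cells and of -0.36 (Lcn2) to -1.05 (Chil3) in T1-non-binding cells. For Pglyrp1 and Lcn2 this direction depended on the scaling. In mouse 1 and mouse 2 Pglyrp1 had 59.0 and 59.9 FPKM in T1-binding and 150.5 and 151.6 FPKM in T1-non-binding cells. Lcn2 had 97.1 and 87.6 FPKM in T1-binding and 216 and 236 FPKM in T1-non-binding cells. In Ly6G-low T1-binding cells all 9 were lower in mouse 2. Over all tested genes the middle 90% of these log2 ratios lay between -0.61 and 0.88 in Ly6G-low T1-binding, -0.92 and 0.78 in Ly6G-high T1-binding and -1.09 and 0.80 in Ly6G-high T1-non-binding cells. Both gates come from the same tumours, 1 tumour-bearing mouse on each side, so the mouse difference has no replicate check and no test.

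**Figure D4:**
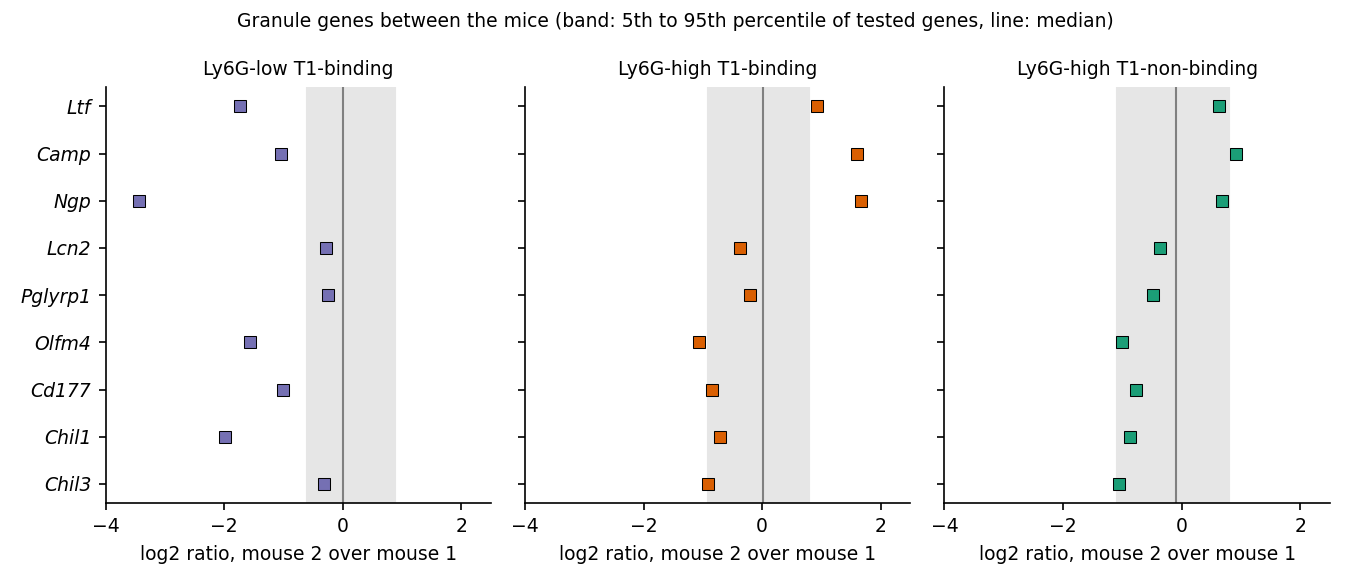
Squares give the log2 ratio of mouse 2 over mouse 1 (horizontal axis) for each granule gene (vertical axis) in Ly6G-low T1-binding, Ly6G-high T1-binding and Ly6G-high T1-non-binding cells; the grey band spans the 5th to the 95th percentile of all tested genes and the line is their median. Ltf, Camp and Ngp lie right of 0 in both Ly6G-high panels, and all 9 genes lie left of 0 in the Ly6G-low panel.

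Of the genes listed for the earlier, azurophil stage, the 4 promyelocyte genes Mpo, Elane, Ctsg and Ms4a3 were nearly absent from all libraries but 1. Together they had 6 and 0 counts in Ly6G-low T1-binding, 422 and 7 counts in Ly6G-high T1-binding and 10 and 20 counts in Ly6G-high T1-non-binding cells of mouse 1 and mouse 2. The library of T1-binding cells of mouse 1 thus stood apart in these 4 genes, with 230 of its 422 counts from Mpo (myeloperoxidase) and 110 from Elane (neutrophil elastase). Other genes listed for that stage set it apart less. Prss57 and Fcnb had 0.503 and 0.964 CPM there, against 0.583 and 1.23 CPM in T1-non-binding cells of mouse 1. Prtn3 had 2.47 CPM there, against 1.21 to 1.48 CPM in the other Ly6G-high libraries. Ctsc had 2901 CPM there, against 2848 CPM in T1-binding cells of mouse 2. The T1-binding library of mouse 1 had the lowest Ltf, Camp and Ngp of the 4 Ly6G-high libraries. Without it the log2 fold changes of the T1-binding against the T1-non-binding group were -1.83 for Ltf, -2.13 for Camp, -1.78 for Ngp, -1.75 for Lcn2, -1.73 for Pglyrp1, -2.00 for Olfm4, -1.77 for Cd177, -1.71 for Chil1 and -0.91 for Chil3. All 9 stayed negative without it and none was called.

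Ly6G-low T1-binding cells had far less of every granule transcript than Ly6G-high T1-binding cells. All 9 genes fell in edgeR's quasi-likelihood test, with adjusted p of 0.002181 to 0.006319, in a comparison where 24.3% of tested genes fell. Their median log2 fold change was -6.14, against 0.03 over all tested genes, -5.52 for the 10 mature neutrophil genes and -2.02 for the 12 macrophage genes, of which all 10 and all 12 fell. Over all genes 3367 fell and 2604 rose. With library totals in place of TMM scaling 2235 fell (16.1%) and 5208 rose, and all 9 granule genes still fell, with a median of -5.52. The total of changed genes was 5971 in all, 1972 without Ly6G-low mouse 1, 3105 without Ly6G-low mouse 2 and 2512 without Ly6G-high T1-binding mouse 1. All 9 granule genes fell in each case, beside 10.1%, 16.7% and 13.2% of tested genes.

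Olfm4 had 0.881 and 0.260 CPM in Ly6G-low T1-binding cells, compared with 109 and 52.2 CPM in the Ly6G-high T1-binding cells, and fell 141-fold (log2 fold change -7.14 ± 0.71, SE). Chil1 had 0.972 and 0.202 CPM in Ly6G-low cells, compared with 85.8 and 52.6 CPM in the Ly6G-high cells, and fell 118-fold (-6.88 ± 0.67). Cd177 had 2.22 and 1.07 CPM in Ly6G-low cells, compared with 149 and 82.7 CPM in the Ly6G-high cells, and fell 70.4-fold (-6.14 ± 0.53). In all 3 genes both Ly6G-low libraries were far below both Ly6G-high ones. The edgeR adjusted p were 0.002915 for Olfm4, 0.00288 for Chil1 and 0.00249 for Cd177. Without Ly6G-low mouse 1 the log2 fold changes were -8.25 for Olfm4, -8.38 for Chil1 and -6.75 for Cd177. Chil1 stood at -6.23 without Ly6G-low mouse 2, and Olfm4 at -6.52 without Ly6G-high T1-binding mouse 1.

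The 3 chromosome 9 genes had 0 to 39 counts in the Ly6G-low libraries, as did Olfm4 and Chil1, which had 29 and 9 counts and 32 and 7 counts there. Ltf had 17 and 4 counts in Ly6G-low T1-binding cells, against 400 and 778 counts in Ly6G-high T1-binding cells, and fell 77.0-fold (log2 fold change -6.27 ± 0.62, edgeR adjusted p 0.00288). Camp was at the limit of detection, with 2 and 0 counts in Ly6G-low cells, against 30 and 97 counts in Ly6G-high cells. Its count of 0 in the Ly6G-low library of mouse 2 allows up to 0.120 CPM by library total, without TMM scaling (counting error only). For Camp the ratio of the pooled CPM was 89.0-fold, with a 95% counting interval of 24.1 to 743 and an edgeR adjusted p of 0.00554. Ngp had 39 and 2 counts in Ly6G-low cells, against 330 and 1072 counts in Ly6G-high cells, and fell 46.9-fold (-5.55 ± 0.97, edgeR adjusted p 0.006319). The mice disagreed in size for Ngp, with log2 ratios of -3.49 in mouse 1 and -8.59 in mouse 2, and its call was lost without a filter on low counts (adjusted p 0.07377) and with the mouse as a block on the 4 compared libraries (adjusted p 0.1792). Without Ly6G-low mouse 1 the log2 fold changes were -7.66 for Ltf and -8.85 for Ngp, and without Ly6G-low mouse 2 they were -5.63 and -4.69. Ngp stood at -6.16 without Ly6G-high T1-binding mouse 1 and at -4.58 without Ly6G-high T1-binding mouse 2. Camp has no fold without Ly6G-low mouse 1, since the remaining library is at 0. In the chromosome 9 span 3 of the 14 other tested genes fell and 4 rose, and their median log2 fold change was 0.03.

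Pglyrp1, Lcn2 and Chil3 had the highest FPKM of the 9 genes in Ly6G-low cells, while in CPM Cd177 of mouse 1 (2.22) was above Pglyrp1 (2.04). Pglyrp1 had 2.04 and 1.71 CPM in Ly6G-low T1-binding cells, compared with 46.8 and 40.6 CPM in the Ly6G-high T1-binding cells, fell 23.3-fold (log2 fold change -4.54 ± 0.25) and ranked first of all genes by p. Lcn2 had 12.8 and 10.5 CPM in Ly6G-low cells, compared with 155 and 119.9 CPM in the Ly6G-high cells, and fell 11.8-fold (-3.56 ± 0.26). Chil3 had 3.89 and 3.09 CPM in Ly6G-low cells, compared with 44.9 and 23.7 CPM in the Ly6G-high cells, and fell 9.81-fold (-3.29 ± 0.46). The edgeR adjusted p were 0.002181 for Pglyrp1 and Lcn2 and 0.003654 for Chil3. Their falls were the smallest of the 9 genes.

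**Figure D5:**
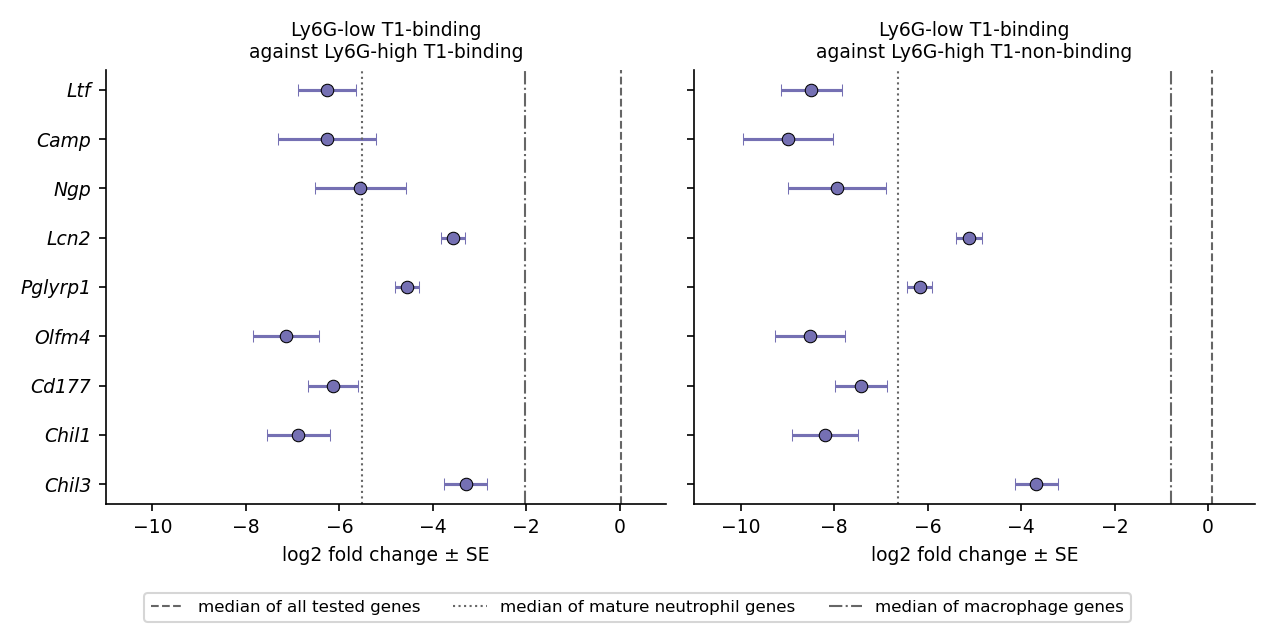
Points give the log2 fold change with its SE (horizontal axis) of each granule gene (vertical axis) for Ly6G-low T1-binding cells against the Ly6G-high T1-binding group (left) and against Ly6G-high T1-non-binding cells (right); lines are the medians of all tested genes, 10 mature neutrophil genes and 12 macrophage genes. All 9 genes lie left of the macrophage median in both panels, and Chil3, Lcn2 and Pglyrp1 lie right of the neutrophil median in both.

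Against Ly6G-high T1-non-binding cells, the same Ly6G-low T1-binding libraries were lower still. All 9 genes fell in edgeR's quasi-likelihood test (adjusted p 0.000551 to 0.002598), where 23.8% of tested genes fell. Their log2 fold changes had a median of -7.94, against 0.09 over all tested genes. Over all genes 3298 fell and 2230 rose. With library totals in place of TMM scaling 1883 fell (13.6%) and 7262 rose, and all 9 granule genes still fell, with a median of -7.17. The total of changed genes was 5528 in all, 1527 without Ly6G-low mouse 1, 2418 without Ly6G-low mouse 2 and 2369 without Ly6G-high T1-non-binding mouse 1. All 9 granule genes fell in each case, beside 9.74%, 15.5% and 14.1% of tested genes. This comparison shares its Ly6G-low libraries with the one against T1-binding cells, so the fold changes are set side by side and are not independent.

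Olfm4 fell 366-fold (log2 fold change -8.52 ± 0.74), Ltf 359-fold (-8.49 ± 0.65) and Chil1 293-fold (-8.20 ± 0.70). Ngp fell 246-fold (-7.94 ± 1.04) and Cd177 172-fold (-7.42 ± 0.56). Camp, with 2 and 0 counts in Ly6G-low T1-binding cells against 185 and 589 counts in Ly6G-high T1-non-binding cells, gave a ratio of 635 with a 95% counting interval of 175 to 5251 (edgeR adjusted p 0.001638). Pglyrp1 fell 71.9-fold (-6.17 ± 0.27) and ranked first by p, Lcn2 fell 34.7-fold (-5.12 ± 0.28) and Chil3 12.7-fold (-3.67 ± 0.46). Without Ly6G-low mouse 1 the log2 fold changes were -9.62 for Olfm4, -9.88 for Ltf, -9.70 for Chil1, -11.24 for Ngp and -8.04 for Cd177. Without Ly6G-low mouse 2 they were -7.89 for Olfm4, -7.81 for Ltf, -7.47 for Chil1 and -7.04 for Ngp, and Chil3 stood at -3.06 without T1-non-binding mouse 1. For Ngp the log2 ratio was -6.55 in mouse 1 and -10.67 in mouse 2. For all 9 genes both Ly6G-low libraries lay below both libraries of each Ly6G-high group, as did 39.6% of tested genes against T1-binding and 36.6% against T1-non-binding cells. The 10 mature neutrophil genes had a median of -6.62 and all fell, and the 12 macrophage genes a median of -0.80, of which 3 fell. Relative to the neutrophil genes of the same library, Olfm4 was at -4.60 and -5.44 on the log2 scale in Ly6G-low T1-binding cells, against -2.90 and -3.19 in Ly6G-high T1-non-binding cells, whereas Lcn2 was at -0.82 and -0.38 against -2.20 and -1.84. The part of leukocyte, neutrophil and stromal content in these falls was not tested.

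Other genes of the granule programme were less uniform than the 9. Of 13 further granule proteins, 12 fell in Ly6G-low T1-binding cells against each Ly6G-high group, with median log2 fold changes of -2.68 against T1-binding and -2.55 against T1-non-binding cells. Hp, which encodes haptoglobin, a haemoglobin-binding protein stored in specific granules, had 10.1 and 8.64 CPM in Ly6G-low T1-binding, 349.6 and 243 CPM in Ly6G-high T1-binding and 827 and 515 CPM in the Ly6G-high T1-non-binding cells. Its log2 fold changes were -4.98 and -6.16 for Ly6G-low cells against the T1-binding and the T1-non-binding groups, and -1.18 between the Ly6G-high groups (edgeR adjusted p 0.385). Mmp8 (neutrophil collagenase) and Mmp9 (gelatinase B) fell in Ly6G-low cells with log2 fold changes of -3.72 and -3.08 against Ly6G-high T1-binding cells, and had log2 fold changes of -0.86 and -0.68 between the Ly6G-high groups. Between the Ly6G-high groups 5 of the 13 genes had positive log2 fold changes, which were 0.80 for Lyz2 (lysozyme), 0.80 and 0.25 for Cybb and Cyba (NADPH oxidase subunits), 0.65 for Cfp (properdin) and 0.17 for Itgam (an integrin chain). The other 8 were negative, among them Itgb2, the partner chain of Itgam, at -0.02 and Adam8, a membrane protease, at -0.43. No gene of this list was called between the Ly6G-high groups. All 12 macrophage genes were positive in that comparison, with a median of 1.17, and the part of macrophage content in these values was not tested. Ptx3, the pentraxin of specific granules, was the 1 gene of the list that did not pass against either group, with 153 and 16 counts in Ly6G-low, 0 and 14 in Ly6G-high T1-binding and 1 and 46 in Ly6G-high T1-non-binding cells.

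Of 8 genes listed as azurophil or promyelocyte genes, 4 passed the filter on low counts (Prtn3, Prss57, Ctsc and Fcnb). All 4 fell in Ly6G-low cells against each Ly6G-high group, with median log2 fold changes of -3.0 against T1-binding and -3.05 against T1-non-binding cells. Between the Ly6G-high groups their median was -0.05, with 2 negative and 2 positive. Ctsc, the protease that activates granule serine proteases, had 406 and 799.7 CPM in Ly6G-low T1-binding, 2901 and 2848 CPM in Ly6G-high T1-binding and 1608 and 1298 CPM in the Ly6G-high T1-non-binding cells. All 7 transcription factors of granulocyte development on the list fell in Ly6G-low cells against both groups, with median log2 fold changes of -2.56 against T1-binding and -3.06 against T1-non-binding cells. Cebpe, which encodes C/EBP epsilon, was low everywhere, with 12 and 5 counts in Ly6G-low, 48 and 25 counts in Ly6G-high T1-binding and 49 and 31 counts in Ly6G-high T1-non-binding cells. Gfi1, a repressor needed for neutrophil development in mice, had 1 and 0 counts in Ly6G-low, 20 and 6 counts in Ly6G-high T1-binding and 36 and 37 counts in Ly6G-high T1-non-binding cells. Between the Ly6G-high groups 6 of the 7 factors had negative values, with a median of -0.50, and none was called.

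Receptors and partners of the granule proteins followed with exceptions. Of 8 listed, 5 were tested; 4 fell in Ly6G-low T1-binding cells against Ly6G-high T1-binding cells and 3 against Ly6G-high T1-non-binding cells. Fpr2, a receptor for cathelicidin peptides, fell with log2 fold changes of -4.23 and -5.16 against the T1-binding and T1-non-binding groups, and Trem1, a receptor that Pglyrp1 binds, with -4.90 and -5.95. Pecam1, the endothelial and leukocyte adhesion molecule that CD177 binds, fell with log2 fold changes of -2.84 and -3.41. Lrp1, a receptor for lactoferrin among many ligands, had log2 fold changes of -0.28 and 0.39 and was not called. Slc22a17 and Lrp2, receptors reported for lipocalin 2, had at most 7 counts in any library. Among the paralogues, Pglyrp4 had 0 and 0 counts in Ly6G-low T1-binding, 104 and 48 in Ly6G-high T1-binding and 151 and 140 in Ly6G-high T1-non-binding cells. Chil5 had 0 and 0 counts in Ly6G-low T1-binding, 12 and 22 in Ly6G-high T1-binding and 24 and 38 in Ly6G-high T1-non-binding cells. Both fell in Ly6G-low cells, and the other 5 paralogues did not pass the filter on low counts.

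Genes outside the list whose profile was most like that of the 9 were ranked by the root mean square difference, in log2 CPM over the 6 libraries, from the median centred profile of the 9. Of 8088 candidate genes the closest were Ly6g at 0.287, Crispld2 at 0.385, Spatc1 at 0.443, Prok2 at 0.450, S100a8 at 0.453, Ceacam10 at 0.458, Rdh12 at 0.480 and Hcar2 at 0.493. Ly6g encodes the protein used for the sort, and S100a8 a calcium-binding subunit of calprotectin in the neutrophil cytosol. Among the 9 themselves Cd177 was nearest to the median profile, at 0.436, and Chil3 farthest, at 1.63. The distances are a description of these 6 libraries, which share 2 mice and 3 gates.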

How the data were processed

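RNA of 3 sorted populations of CT26 tumours from 2 mice was sequenced (6 libraries, 2 per population). The deposited read counts per gene were used as the authors gave them, without normalization, and the deposited FPKM values, named so per the file headers (fragments scaled by gene length and library size), were used only to compare genes with each other. The submitters' processing notes name TopHat, STAR 2.5, HTSeq 0.6.1 and mm10, with no role or order; the annotation release, strandedness and handling of shared reads are not given in the sources used here. Of the 35275 gene IDs 34490 matched GENCODE M21 (GRCm38), from which coordinates were taken, and promoter sequences came from RefSeq (GRCm38.p6).

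Genes were kept by filterByExpr with a minimum count of 10 and scaled by TMM, and 13883 were tested over all 6 libraries, which share 1 estimate of the spread, with edgeR 4.0.16 (glmQLFit, robust, and glmQLFTest; R 4.3.3), adjusted by Benjamini-Hochberg over all tested genes at 0.05. All tests are two-sided. The computation was tested on simulated data. CPM values are TMM-scaled, means carry the SD over 2 libraries, and log2 CPM uses a prior count of 2. Limits for 0 use 3 counts over the library total, without TMM scaling, and cover counting error only. Library totals of 23595976 to 28045025 counts set the precision. Mouse number comes from the source label, so libraries of 1 number come from the same animal; deviations from group means correlated at r = 0.52 across genes between both Ly6G-high libraries of a mouse, and between its Ly6G-low library and the Ly6G-high T1-binding and T1-non-binding ones at -0.00 and -0.04. Whether the sorted samples of a mouse were processed apart is not given, so p-values measure the spread between these libraries. Alternatives were RLE scaling, library totals, no filter, at least 50 counts in 2 libraries, DESeq2 1.42.0, limma-voom (limma 3.58.1), the compared groups only, mouse as a block, and leaving out each library.

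All 9 granule genes are named whatever their result; other lists are given by counts and medians, with examples, and the 8 closest genes by profile among those with a mean of at least 10 CPM. The members and lists were chosen with earlier results of these data known, so their counts are descriptions, read beside the share of all tested genes called.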

Additional observations from a re-analysis of the deposited data

How the results depend on the processing

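Between the Ly6G-high T1-binding and T1-non-binding groups the count of called genes, 0 in edgeR with TMM scaling, was 71 without a filter on low counts, 203 with DESeq2 and 3778 with mouse as a block on the compared libraries, and the count of called granule genes was 2, 3 and 9 in these fits. Leaving out each library in turn gave 0 to 0 genes and 0 to 0 granule genes. The log2 fold changes of the 9 genes kept their direction in 133 of 135 alternative values; the other 2 were Chil3, whose values ran from -0.91 without Ly6G-high T1-binding mouse 1 to 0.08 without Ly6G-high T1-binding mouse 2 and 0.24 without Ly6G-high T1-non-binding mouse 1. For Ly6G-low cells against Ly6G-high T1-binding cells all 135 values kept their direction and 133 were called; genes called ranged from 1972 to 6731 as libraries were left out, and granule genes from 9 to 9. The calls lost were both of Ngp. Against Ly6G-high T1-non-binding cells all 135 values were called and negative, genes called were 9145 with library totals, and they ranged from 1527 to 6282, with granule genes at 9 to 9, as libraries were left out. A fit with 1 library left in a group assumes that it varies like the other groups. Library totals moved the median log2 fold change of all genes by 0.25, 0.58 and 0.83 in the 3 comparisons, where the medians of the granule genes were -1.29, -5.52 and -7.17. Ranked by counts per kilobase after TMM scaling in place of FPKM, 7 of the 9 genes kept their rank in Ly6G-high T1-non-binding cells. The causes were not tested.

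With mouse as a replicate block on all 6 libraries, 0, 6750 and 6447 genes were called in the 3 comparisons, with 0, 9 and 9 granule genes. With the block on the compared libraries only, which leaves 1 residual degree of freedom, 3778, 6191 and 4901 genes were called, with 9, 8 and 9 granule genes. The mouse pairing changed no other call of a granule gene. Depth limited Camp, Ltf, Ngp, Olfm4 and Chil1 in Ly6G-low cells, where single libraries held 0 to 39 counts.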

Other observations

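In the chromosome 9 span that holds Camp, Ngp and Ltf, 5 of the 14 other tested genes fell and 5 rose in Ly6G-low T1-binding cells against Ly6G-high T1-non-binding cells, with a median log2 fold change of 0.50. The lowest value among them was -2.11 for Nbeal2, a gene needed for granules of platelets and neutrophils, against -8.49 for Ltf. Cd177 and Pglyrp1 lie on chromosome 7, 5.85 Mb apart. The 4 promyelocyte genes Mpo, Elane, Ctsg and Ms4a3 did not pass the filter on low counts. Their 422 counts in Ly6G-high T1-binding cells of mouse 1, against 7 counts in the same gate of mouse 2, were therefore not tested in the main fit.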
